A study of Mus musculus with 8 samples.

Results

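Mitochondrial ribosomal RNA (mt-rRNA) fragments are the short reads of mouse sperm small RNA libraries that come from 12S rRNA (gene mt-Rnr1) and 16S rRNA (gene mt-Rnr2). A distinct fragment was counted as a member when its annotation held the name Mt_rRNA, or when its only rRNA name was 12S-rRNA or 16S-rRNA. The members numbered 52031 of the 5724730 distinct fragments found over 8 libraries, 18130 of 12S and 33901 of 16S. Of these, 6380 were found in all 8 libraries and 12860 in 1 library only.

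The small RNA libraries, each from 100 ng of RNA and 1 per mouse, came from mature sperm of 4 activated (Agrp Cre/+) and 4 control (Agrp +/+) males. At 8 weeks of age, every mouse had received AAV-hM3Dq-mCherry in both sides of the arcuate nucleus. This vector needs Cre to express, from the hSyn promoter, an excitatory receptor that answers to clozapine-N-oxide (CNO), so CNO was meant to excite the hunger-promoting AgRP neurons of Cre carriers only. After 3 weeks all mice received CNO at 1 mg/kg following 1 h without food, and their caudae epididymides gave the sperm 4 h later. The activated libraries held 14903635, 17489698, 14757501 and 9409491 reads (replicates 1 to 4 in this order, here and throughout) and the control libraries 12421068, 23123740, 9297271 and 14348060. The question asked here was how mt-rRNA fragments are built and whether AgRP neuron activation changed them. With 4 mice against 4, an exact permutation test (two-sided) cannot give a p below 0.0286.

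Both mitochondrial rRNAs are copied from the mitochondrial genome as part of one long precursor and are released where the tRNAs beside them are cut out. 12S rRNA belongs to the small subunit and 16S rRNA to the large subunit of the mitochondrial ribosome, which makes proteins of the respiratory chain. In sperm, mitochondria are wrapped around the midpiece of the tail, while most of the remaining cytoplasm is shed as the cell matures.

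On GRCm38 (mm10), mt-Rnr1 (ENSMUSG00000064337.1) lies at chrM:70-1024 and mt-Rnr2 (ENSMUSG00000064339.1) at chrM:1094-2675, both on the plus strand, with lengths of 955 and 1582 nt. Each is a single exon, and the genes of 3 tRNAs, mt-Tf, mt-Tv and mt-Tl1, flank them. Fragment positions are counted from 1 at the 5' end of each RNA. The sequences below, read from the deposited files and written as DNA, carry the patterns described further on. The first set shows the 5' ends of both RNAs, where reads pile up most. In it, capitals mark the bases shared by every listed fragment of that RNA that starts at position 1.
12S positions 1 to 35 (chrM:70-104): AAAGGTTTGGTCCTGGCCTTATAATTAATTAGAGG
12S positions 1 to 37 (chrM:70-106): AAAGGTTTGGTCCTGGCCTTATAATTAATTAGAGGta
12S positions 1 to 42 (chrM:70-111): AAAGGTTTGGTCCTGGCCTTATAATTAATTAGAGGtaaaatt
16S positions 1 to 20 (chrM:1094-1113): ACTAATCCTAGCCCTAGCCC
16S positions 1 to 40 (chrM:1094-1133): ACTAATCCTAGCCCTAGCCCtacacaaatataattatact
16S positions 1 to 44 (chrM:1094-1137): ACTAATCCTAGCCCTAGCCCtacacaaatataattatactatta

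The second set shows abundant fragments from inside the RNAs and the tested fragment whose groups did not overlap (16S positions 1059 to 1103). Capitals mark the bases that a fragment shares with another listed fragment that overlaps it, and a sequence without such a partner is in lower case.
12S positions 672 to 711 (chrM:741-780): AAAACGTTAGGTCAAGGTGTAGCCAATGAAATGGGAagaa
12S positions 672 to 707 (chrM:741-776): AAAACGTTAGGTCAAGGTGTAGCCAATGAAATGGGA
16S positions 753 to 793 (chrM:1846-1886): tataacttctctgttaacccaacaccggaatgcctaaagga
16S positions 1059 to 1103 (chrM:2152-2196): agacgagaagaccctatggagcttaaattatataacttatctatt
16S positions 1254 to 1288 (chrM:2347-2381): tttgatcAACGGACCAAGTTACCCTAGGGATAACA
16S positions 1261 to 1305 (chrM:2354-2398): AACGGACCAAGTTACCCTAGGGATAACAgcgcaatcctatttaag

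The names in the files were checked against both genes. Every read named 16S-rRNA lay inside mt-Rnr2 and every read named Mt_rRNA inside mt-Rnr1. The class called Mt_rRNA in the deposited class tables therefore held 12S reads only, from 5.48% to 22.7% of the member reads of a library, because the reads of 16S are listed there under the name 16S-rRNA. Reads named 12S-rRNA were few, 120 to 1431 per library, and among them 10 to 98 reads per library (52 distinct fragments over all libraries) matched neither gene. Summed over the names, the fragment tables and the class tables differed by 0 to 5 reads per library. Copies of mitochondrial sequence also lie in the nuclear genome, and their part in these reads was not tested.

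The 8 libraries fell into 2 sets that cross the groups. The first principal component of the 10632 tested fragments that are not members held 43.2% of their variance. It placed activated replicates 2 and 3 and control replicates 1 and 3 on one side and activated replicates 1 and 4 and control replicates 2 and 4 on the other. Each side holds 2 activated and 2 control mice, so values within a side are given beside the pooled ones, without a test at 2 against 2.

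Markers of other cells were summed in each library as RPM (reads per 1000000 reads of the library), to show which libraries stand apart in them. All 16 hairpins of the testis and sperm list were detected, with 62989, 45083, 35884 and 60223 RPM in activated sperm and 38223, 52566, 27950 and 45641 RPM in control sperm, led by mir-34b. All 7 of the epithelium list were detected, with 3476, 1166, 1085 and 1196 against 1364, 1825, 2733 and 19420 RPM, led by mir-200c. All 4 of the smooth muscle list were detected, with 393, 199, 138 and 292 against 200, 362, 244 and 35309 RPM, led by mir-143. Control replicate 4, the library with the largest share of 16S reads of 20 nt, thus also held by far the most epithelium and smooth muscle miRNA. The erythrocyte list (4 of 4 hairpins, led by mir-451a) summed to 298, 83.5, 113 and 84.1 against 235, 532, 976 and 659 RPM, and the leukocyte list (4 of 4, led by mir-142a) to 862, 398, 655 and 581 against 343, 454, 295 and 553 RPM. Control replicate 3, with the highest level of the 16S fragment of positions 1 to 20, had the highest erythrocyte sum. It held less epithelium and smooth muscle miRNA than activated replicate 1, and the lowest leukocyte sum, so no single list stood out in both control replicates 3 and 4 alone. No hairpin of any list was at 0 in all libraries, and the part of these cells in the mt-rRNA values was not tested. Without control replicate 4, total mt-rRNA in activated sperm was 0.893 of control in place of 1.05, 16S 0.842 in place of 0.977 and 12S stood at 1.18.

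Members made up 2.05%, 8.35%, 7.68% and 1.80% of all reads in activated sperm and 7.11%, 2.06%, 7.51% and 2.24% in control sperm. The 4 libraries on the first side of the component were the 4 with the most mt-rRNA. They also held the 4 lowest testis and sperm miRNA sums, 27950 to 45083 RPM against 45641 to 62989 RPM. Of all their reads, 59.1% to 72.9% matched the genome, against 74.4% to 77.7% on the other side. How these measures relate to the mt-rRNA level was not tested. In RPM, 16S stood at 18715, 64477, 59783 and 16503 in activated and at 59002, 18893, 64104 and 21200 in control sperm. 12S stood at 1831, 18987, 16975 and 1461 RPM in activated sperm and at 12141, 1688, 11019 and 1237 RPM in control sperm. The libraries thus spanned 3.91-fold in 16S and 15.3-fold in 12S, and each group held 2 high and 2 low libraries for either RNA. Other abundant classes spanned less, 2.33-fold for 28S rRNA, 1.91-fold for 18S rRNA and from 16126 to 32213 RPM for mitochondrial tRNA. The latter was split in the same way, with 26407 to 32213 RPM on the first side of the component and 16126 to 22768 RPM on the other. In these bulk samples, fewer cells of a type and less RNA per cell cannot be told apart.

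**Figure D1:**
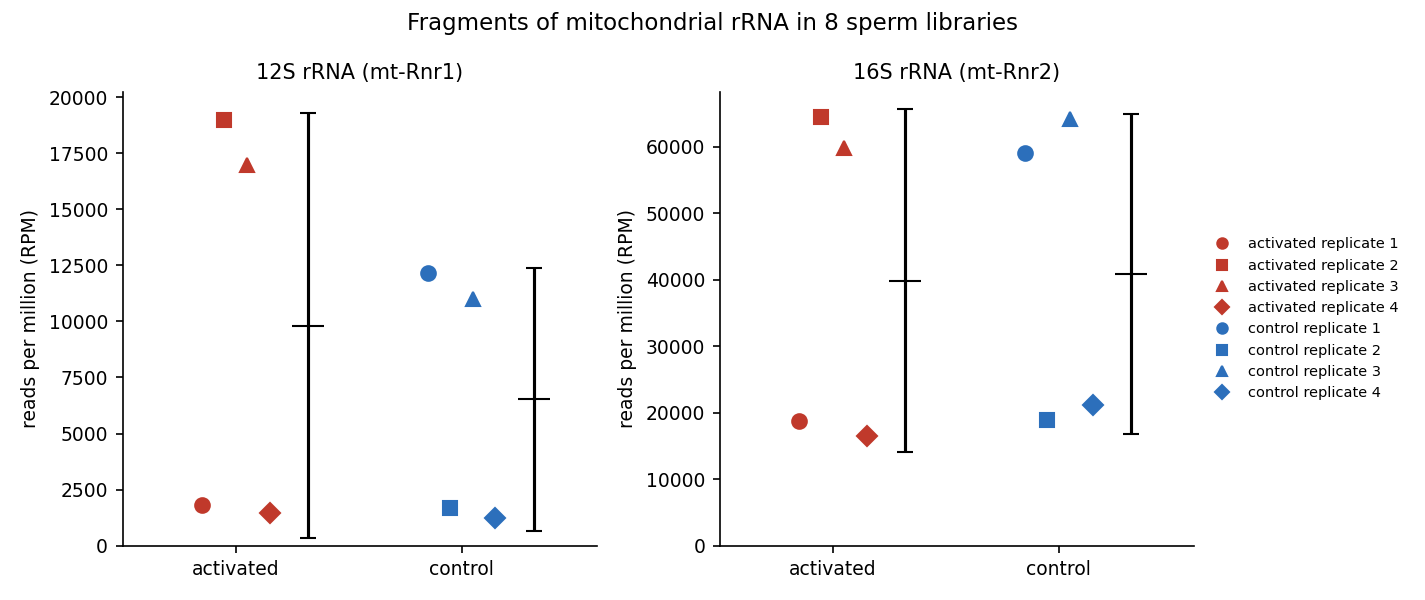
RPM of 12S (left) and 16S rRNA fragments (right) in 4 activated and 4 control libraries. Points are mice, with the marker shape giving the replicate, and the bar with whiskers gives the group mean and SD. In both groups 2 libraries lie high and 2 low, between 1237 and 18987 RPM for 12S and between 16503 and 64477 RPM for 16S.

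The groups did not differ in mt-rRNA level beyond this spread. Total mt-rRNA averaged 49683 ± 35258 RPM in activated sperm and 47321 ± 29859 RPM in the controls (SD, n = 4 per group, two-sided exact permutation test, p = 0.771). For 16S the means were 39870 ± 25791 and 40800 ± 24073 RPM (SD, n = 4 per group, exact permutation test, p = 0.857). For 12S they were 9813 ± 9468 and 6521 ± 5862 RPM (SD, n = 4 per group, exact permutation test, p = 0.543), and adjusted over these 3 tests by Benjamini-Hochberg each p was 0.857. Within the first side of the component, activated sperm stood at 1.01 of control for 16S and 1.55 for 12S. Within the second side the ratios were 0.878 and 1.13. The ratio of activated to control for 12S was 1.04 without activated replicate 2 and 2.11 without control replicate 1, so single mice move it more than any other choice tried. The sign of the difference in total and in 16S depended on which mouse was left out, and in the total also on the scaling of the libraries.

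The balance between the RNAs differed more between libraries than between groups. 12S took 8.91%, 22.7%, 22.1% and 8.13% of the member reads in activated sperm and 17.1%, 8.20%, 14.7% and 5.51% in control sperm. The mean share was 15.5% ± 8.04 (SD, n = 4) against 11.4% ± 5.41 (SD, n = 4; exact permutation test, two-sided, p = 0.486). Within both sides of the component the activated mean was higher, by 6.57 and 1.66 percentage points. On the second side control replicate 2, at 8.20%, lay between activated replicates 4 and 1. The difference of 4.11 points was 0.390 with each distinct fragment counted once. It was 1.69, 1.90 and 2.17 without activated replicate 2, activated replicate 3 and control replicate 4, and 6.30 and 6.56 without activated replicates 1 and 4. Per kilobase of RNA, 16S was more abundant than 12S in all 8 libraries, by 6.17, 2.05, 2.13 and 6.82 times in activated and 2.93, 6.76, 3.51 and 10.3 times in control sperm. The excess of 16S was smallest in the libraries with the most mt-rRNA.

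Summed as whole RNAs and fitted beside all other annotated RNA species, 12S had an edgeR log2 fold change of 0.80 with a standard error (SE) of 1.06 (adjusted p = 0.703), and 16S one of 0.12 with an SE of 0.64 (adjusted p = 0.913). For 12S this was 0.27 to 1.24 with a sample left out, and DESeq2 with apeglm gave shrunken values of 0.02 for 12S and 0.01 for 16S. EdgeR called 0 of the 616 species (0%). Without adjustment, 4 species were higher and 31 lower in edgeR past a log2 fold change of 1 with p under 0.05, and DESeq2 called 0 higher and 3 lower after adjustment, neither 12S nor 16S among them. With the side of the component as covariate, the SE was 0.22 for 12S and 0.2 for 16S. The log2 fold changes were then 0.43 (edgeR, adjusted p = 0.425) and -0.06 (edgeR, adjusted p = 0.868). The sides were drawn from these same libraries and match their split into high and low mt-rRNA, so the smaller SE is not read as a gain in precision.

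Reads covered nearly the full length of both RNAs, with 952 to 955 of 955 positions of 12S and all 1582 positions of 16S reached in every library. They were far from even. In the first 50 nt started 24.6% to 42.5% of the 12S reads (median 32.4%) and 21.8% to 56.6% of the 16S reads (median 27.5%). Most of these began at the first base of the RNA. Position 1 was the start of 27.1%, 39.5%, 40.9% and 22.7% of the 12S reads in activated and 30.9%, 22.4%, 33.6% and 29.5% in control sperm. For 16S it was the start of 26.5%, 15.5%, 19.9% and 19.7% in activated and 20.8%, 22.7%, 37.2% and 53.1% in control sperm. The 5' end of the mature RNA was thus kept in a large part of the reads of both RNAs.

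**Figure D2:**
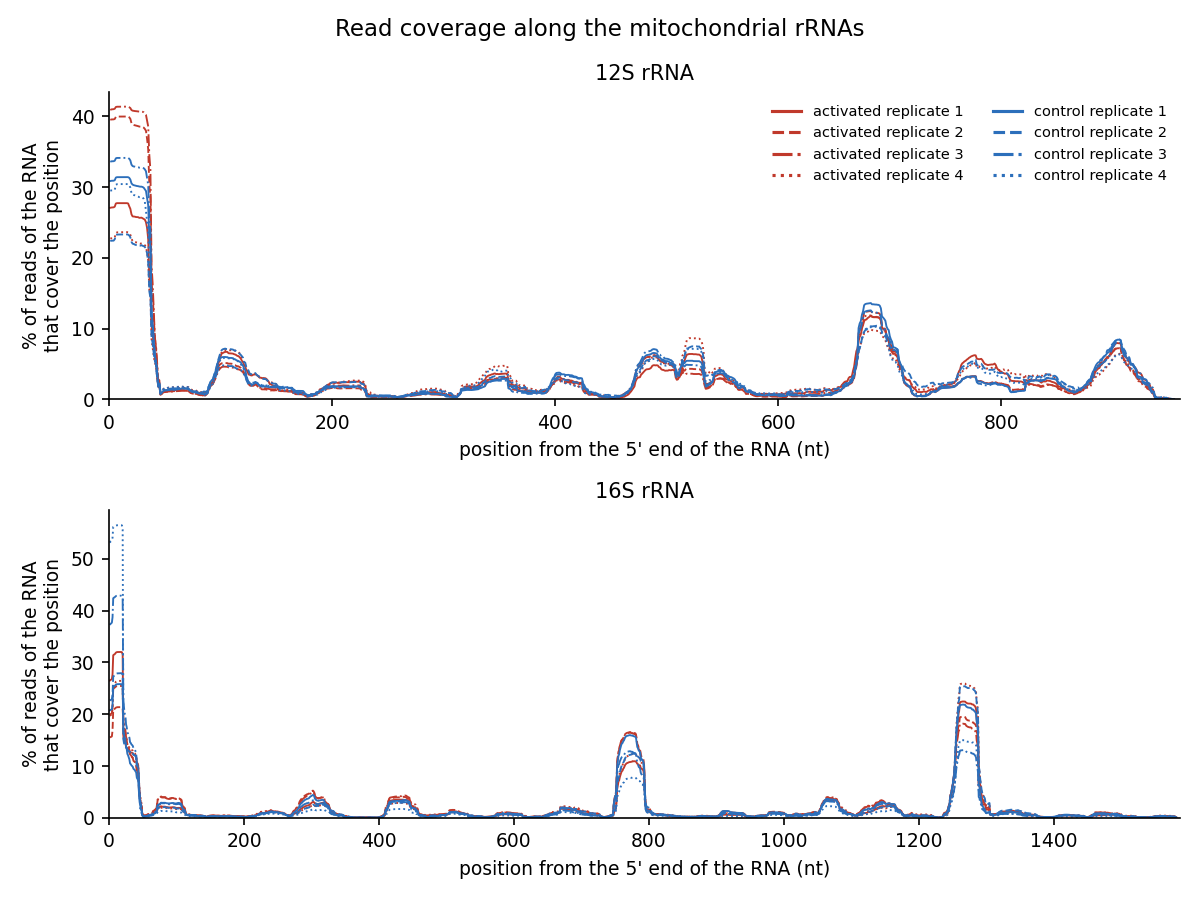
Percent of the reads of 12S (top) and 16S rRNA (bottom) that cover each position, counted from the 5' end of the RNA, with 1 line per library. The first bases and a few inner stretches stand out in all 8 libraries, and control replicate 4 has the highest peak at the 5' end of 16S, where 53.1% of its 16S reads start.

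Inside the RNAs, a small number of stretches recurred in all libraries. In 16S, 9.42% to 20.5% of the reads (median 15.1%) started between positions 1251 and 1300, a stretch that belongs to the peptidyl transferase centre, where the ribosome joins amino acids. The base at position 1288 was the last base of 4.72% to 10.1% of all 16S reads (median 8.05%), while the starts were spread over several neighbours, among them positions 1254, 1255 and 1256 with medians of 2.13%, 1.93% and 2.48%. A further 7.11% to 13.0% (median 11.5%) started between 751 and 800, with position 753 as the start of 1.75% to 3.76% and position 793 as the end of 2.30% to 4.44%. In 12S, the window from 651 to 700 held 10.6% to 13.8% of the starts (median 12.0%), the window from 501 to 550 held 5.39% to 11.1% (median 8.25%) and the window from 851 to 900 held 5.80% to 7.99% (median 7.14%). By contrast, 0.0325% to 0.0884% of the 16S reads started between 351 and 400.

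Some start positions separated the sets of libraries fully and others overlapped between them. Position 672 was the start of 1.16%, 3.36%, 2.65% and 1.09% of 12S reads in activated and 3.69%, 1.14%, 2.86% and 0.795% in control sperm. Position 748 of 16S was the start of 0.529%, 1.95%, 1.89% and 0.556% in activated and 1.91%, 0.523%, 1.86% and 0.427% in control sperm. Both were higher in the 4 libraries on the first side of the component than in the other 4. The same held for position 1 of 12S, the start of 30.9% to 40.9% on the first side and 22.4% to 29.5% on the other. Position 514 of 12S, with 0.725% to 1.32%, varied less and leaned the other way. It was the start of 0.725% to 1.02% on the first side and 0.928% to 1.32% on the other. Across windows of 50 nt, the share of starts differed between activated and control sperm at an unadjusted p of 0.0286 in 2 of 51 windows, both in 16S (exact permutation tests, two-sided, lowest adjusted p = 0.583). These were positions 201 to 250, with means of 1.53% and 1.25%, and positions 451 to 500, with 0.938% and 0.688%. Shares of starts sum to 100%, and the window of positions 1 to 50 of 16S had means of 26.7% in activated and 38.5% in control sperm, so these 2 windows are not independent of the first.

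The bases next to the read ends were compared with those of the whole RNA. Of all junctions between neighbouring bases, 17.4% in 12S and 16.3% in 16S have C or T before A. Such a junction lay at the 5' end of 19.0% to 20.6% of the 12S reads and 14.6% to 16.2% of the 16S reads that start after position 1. At the 3' end the shares were 14.0% to 18.8% and 14.8% to 19.4%. With each distinct fragment counted once, they were 18.5% to 20.1% for 12S and 17.4% to 18.2% for 16S at the 5' end, and 18.6% to 21.6% and 16.7% to 17.9% at the 3' end. For the 5' end of 16S, the share thus lay below that of the RNA over reads and above it over distinct fragments, and these differences were not tested.

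Of the 12S reads, 54.7% to 70.5% (median 58.6%) were 35 to 45 nt long, and of the 16S reads 37.8% to 60.5% (median 56.1%). In control replicate 4, the lowest, 45.4% of the 16S reads were 15 to 24 nt long. 12S had its peak at 37 nt, with a median of 10.7% of its reads, and a lower one at 35 nt, with 6.35% to 7.93%. 16S had its peak at 20 nt in 6 libraries, at 43 nt in activated replicate 2 (7.46%) and at 45 nt in activated replicate 3 (7.43%). At 20 nt the libraries differed widely, with 15.9%, 3.01%, 6.23% and 9.72% of 16S reads in activated and 8.79%, 12.6%, 19.6% and 37.5% in control sperm. In 12S, 0.948% to 2.01% of the reads were 20 nt long. Reads were still frequent at the upper limit, with 4.63% to 5.70% of 12S reads and 5.30% to 8.40% of 16S reads at exactly 45 nt, the longest that the authors kept.

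**Figure D3:**
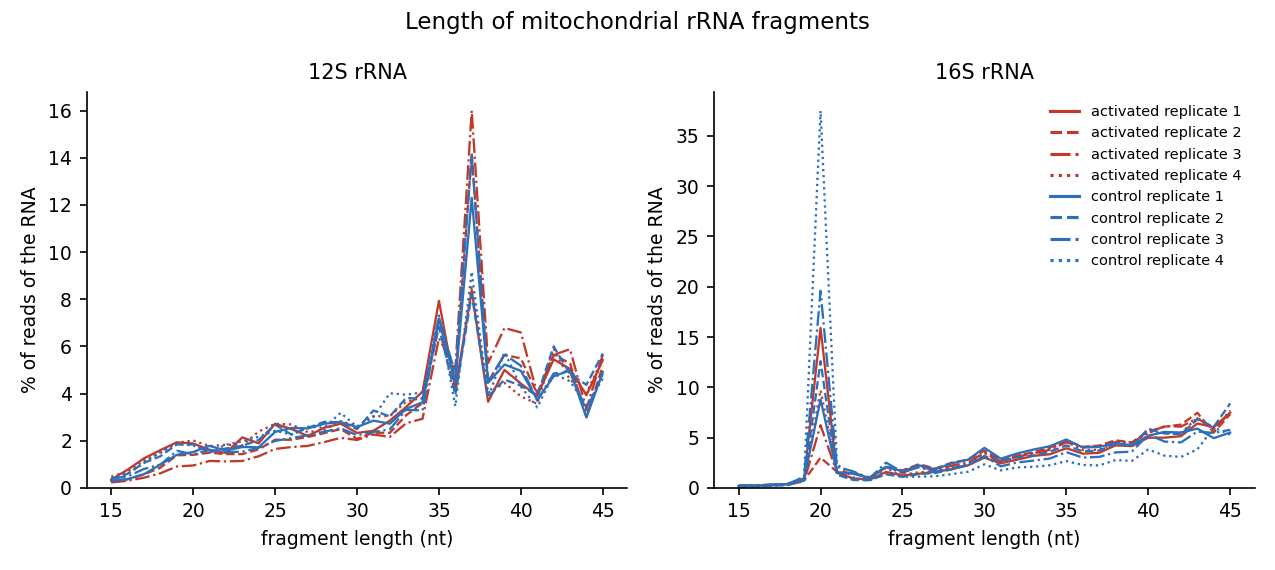
Percent of the reads of 12S (left) and 16S rRNA (right) at each fragment length in nt, with 1 line per library. 12S peaks at 37 nt (median 10.7%). 16S ranges at 20 nt from 3.01% in activated replicate 2 to 37.5% in control replicate 4, and this is its peak in all libraries but activated replicates 2 and 3.

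The mean length of mt-rRNA reads was 33.7, 35.3, 35.3 and 34.7 nt in activated and 34.2, 34.6, 32.7 and 29.9 nt in control sperm, which gives 34.8 ± 0.743 and 32.8 ± 2.09 nt (SD, n = 4 per group, exact permutation test, two-sided, p = 0.114, adjusted p = 0.343 over 3 tests of composition). Within the sides of the component the activated mean was longer, by 1.89 and 1.95 nt. On the second side control replicate 2 lay between activated replicates 1 and 4, so the 1.95 nt rests on control replicate 4. Reads of 20 nt were 14.7%, 2.64%, 5.06% and 9.10% of the member reads in activated and 7.55%, 11.7%, 17.0% and 35.5% in control sperm. The mean length is therefore not separate from that class. The difference of 1.92 nt became 0.957 nt without control replicate 4, and -0.0215 nt when each distinct fragment was counted once. Compared with other RNAs of the same libraries, mt-rRNA reads were longer than those of 18S rRNA in 8 of 8 libraries, by 4.52 nt on average. They were shorter than those of 28S rRNA (difference -1.85 nt) and mitochondrial tRNA (difference -5.22 nt), in each case in 8 of 8 libraries. With only reads of at least 18 nt the differences were 3.07 nt for 18S rRNA, -3.25 nt for 28S rRNA and -5.22 nt for mitochondrial tRNA. Each comparison reached the smallest p that 8 libraries allow (exact sign-flip permutation test, two-sided, p = 0.00781, adjusted p = 0.00781 over 3 comparators).

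Nearly every mt-rRNA read matched the genome, 99.991% to 99.998% per library. This share follows from how the reads were named, so the tests that were run on it, between activated and control sperm and against 28S rRNA, 18S rRNA and mitochondrial tRNA, are void and nothing is read from them.

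By mean RPM over the libraries, the most abundant member was the 16S fragment of positions 1 to 20. It stood at 2895, 1600, 3472 and 1527 RPM in activated sperm and at 4912, 2301, 12288 and 7879 RPM in control sperm. In activated replicate 2 the 12S fragment of positions 1 to 37 lay above it, at 2195 RPM. The groups overlapped through control replicate 2, which lay below activated replicates 1 and 3, and the levels did not follow the sets of libraries, since control replicate 4 is low in mt-rRNA and second highest here. Means were 2374 ± 965 and 6845 ± 4285 RPM (SD, n = 4 per group), with an edgeR log2 fold change of -1.62 and an SE of 0.56 (adjusted p = 0.567), and no tested member had a lower unadjusted p (0.0174 in edgeR). With a minimum of 1 count in 4 samples in place of 50, the edgeR adjusted p was 0.0299 at a log2 fold change of -1.58. At that minimum edgeR called 2 of 24269 members, against 0.722% of all 387985 fragments. With DESeq2 the log2 fold change, shrunken by apeglm, was -0.28 (adjusted p = 0.199), and the adjusted p reached 0.991 over the other alternatives. Without control replicate 3 the log2 fold change was -1.19, and without control replicate 4 it was -1.38. These 2 libraries also had the highest erythrocyte miRNA sums, 976 and 659 RPM, against 83.5 to 298 RPM in activated sperm. Control replicate 2, with 532 RPM, lay above all activated libraries in that sum but below activated replicates 1 and 3 in the fragment. Control replicate 1, with 235 RPM, lay within the activated range in the sum and above it in the fragment. Control replicate 3 also held the most 28S rRNA, 249983 RPM. In it 24.7% of the 28S reads matched the genome, against 62.6% to 74.9% in the other libraries. How these measures relate to the fragment was not tested.

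Of the 16S reads that start at position 1, a median of 49.2% stopped at position 20. The share was lowest in activated replicate 2 and highest in control replicate 4, with 58.4%, 29.2% and 46.9% in activated replicates 1, 3 and 4 and 40.1%, 53.7% and 51.5% in control replicates 1 to 3. The next stops in order were weaker, at position 44 with 6.38% to 8.44% and at position 43 with 2.03% to 12.7%. The 16S fragment of positions 2 to 20, which shares its 3' end, stood at 9.86, 4.57, 19.3 and 6.27 RPM in activated sperm and 16.1, 8.48, 56.9 and 30.9 RPM in control sperm (edgeR log2 fold change -1.59 with SE 0.67, adjusted p = 0.666). All 6 tested fragments that end at position 20 had a negative log2 fold change, from -1.62 to -0.34, but they overlap one another and are not separate evidence. The choice of this 3' end was made after its values were seen.

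The 20 nt class of mt-rRNA is made mostly of reads with this end. Of the mt-rRNA reads of 20 nt, 72.6% to 98.9% per library were the fragment of positions 1 to 20. At 20 nt, mt-rRNA averaged 2686 ± 981 RPM in activated sperm and 7119 ± 4380 RPM in the controls (SD, n = 4 per group, exact permutation test, two-sided, p = 0.0857, adjusted p = 0.996 over 31 lengths), and 0 of the 31 lengths reached an unadjusted p under 0.05. The ratio was below 1 within both sides of the component, at 0.336 and 0.449. On the second side, activated replicates 1 and 4 stood at 3018 and 1634 RPM and control replicates 2 and 4 at 2406 and 7963 RPM. Activated replicate 1 thus lay above control replicate 2, and the ratio of 0.449 rests on control replicate 4. The difference between the groups in all annotated rRNA of 20 nt was -5124 RPM, and 86.5% of it lay in mt-rRNA. That share was 76.3% to 94.8% with a sample left out. It was lowest without control replicate 3, where the difference was -3357 RPM and its mt-rRNA part -2560 in place of -4433 RPM. The remaining rRNA of 20 nt stood at 3327 ± 660 and 4019 ± 858 RPM (SD, n = 4 per group). This split was made after the values were seen, and the difference that it divides was not established. The share largely restates the fragment of positions 1 to 20, which makes up most of the mt-rRNA class. Without the reads that end at position 20, 16S stood at 37468 ± 25653 RPM in activated sperm and 33891 ± 21975 RPM in the controls (SD, n = 4 per group), a ratio of 1.11 that ranged from 0.856 to 1.38 with a sample left out and so has no settled direction.

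**Figure D4:**
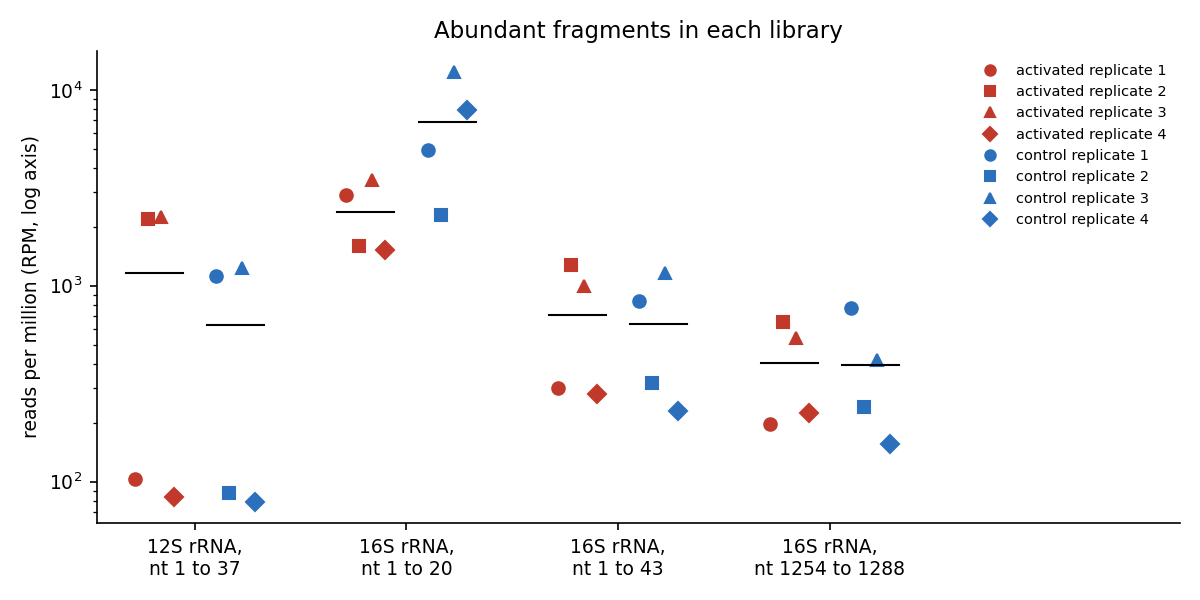
RPM (log axis) of 4 abundant mt-rRNA fragments in each library, with points for mice and a line for the group mean. The 16S fragment of positions 1 to 20 spans 1527 to 12288 RPM and does not follow the 2 sets of libraries, whereas the 12S fragment of positions 1 to 37 lies at 79.1 to 103 RPM in 4 libraries and at 1120 to 2254 RPM in the other 4.

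The 3 most abundant longer fragments with the same 5' end had log2 fold changes nearer to 0, and their difference from the fragment of positions 1 to 20 was not tested. The 16S fragment of positions 1 to 43 stood at 302, 1271, 999 and 280 RPM in activated sperm and 835, 318, 1161 and 229 RPM in control sperm, with an edgeR log2 fold change of 0.08, SE 0.57 (adjusted p = 0.999). That of positions 1 to 44 stood at 418, 725, 960 and 246 RPM in activated sperm and 803, 361, 1523 and 820 RPM in control sperm (edgeR log2 fold change -0.71 with SE 0.50, adjusted p = 0.987). That of positions 1 to 40 stood at 193, 576, 557 and 218 against 556, 291, 1193 and 277 RPM (edgeR log2 fold change -0.67 with SE 0.51, adjusted p = 0.999). Of the 28 tested fragments that start at position 1 of 16S, 11 had a positive and 17 a negative log2 fold change.

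The 5 most abundant 12S fragments all started at position 1 and ended at positions 37, 35, 39, 40 and 42. The fragment of positions 1 to 37 stood at 103, 2195, 2254 and 83.9 RPM in activated sperm and 1120, 87.6, 1230 and 79.1 RPM in control sperm (edgeR log2 fold change 0.80 with SE 1.15, adjusted p = 0.999). That of positions 1 to 35 stood at 96.4, 948, 681 and 59.9 against 554, 67.6, 517 and 56.2 RPM (edgeR log2 fold change 0.50 with SE 0.92, adjusted p = 0.999). For both, activated replicates 2 and 3 lay above control replicates 1 and 3, while the other 4 libraries overlapped. The log2 fold change of the fragment of positions 1 to 37 was 0.48 with the component side as covariate and 0.36 with the replicate block. With a sample left out it was 0.39 to 1.58. The fragments of positions 1 to 40 and 1 to 42 had log2 fold changes of 1.20 and 1.04 (edgeR, adjusted p = 0.999 for each), which were 0.63 and 0.66 with the component side as covariate, 0.40 and 0.54 with the replicate block, and 0.75 to 1.85 and 0.52 to 1.65 with a sample left out. In them the highest library stood 55.1 and 22.1 times above the lowest. All 23 tested fragments that start at position 1 of 12S had a positive log2 fold change (median 0.52), and none had an unadjusted p under 0.05. They overlap one another and are not separate evidence. Of the 183 tested 12S fragments that start later, 161 were positive as well (median 0.36), so this lean is not particular to the 5' end.

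Among fragments from inside the RNAs, the 16S fragment of positions 753 to 793 was the most abundant by mean RPM, with 179, 871, 825 and 167 RPM in activated sperm and 763, 207, 630 and 141 RPM in control sperm (edgeR log2 fold change 0.16 with SE 0.62, adjusted p = 0.999). The next, chosen for display after the values were seen, came from the peptidyl transferase centre. The fragment of positions 1261 to 1305 stood at 273, 672, 592 and 318 RPM in activated sperm and 336, 408, 402 and 134 RPM in control sperm (edgeR log2 fold change 0.46 with SE 0.37, adjusted p = 0.999). The fragment of positions 1254 to 1288 stood at 197, 652, 540 and 224 RPM in activated sperm and 770, 241, 418 and 156 RPM in control sperm (edgeR log2 fold change -0.01 with SE 0.47, adjusted p = 0.999). These spanned 5.02-fold and 4.92-fold over the libraries, whereas the inner 12S fragments of positions 672 to 707 and 672 to 711 spanned 62.7-fold and 109-fold. The inner 12S fragment of highest mean RPM, of positions 316 to 357, spanned 21.6-fold. The fragment of positions 672 to 711 stood at 2.01, 57.8, 53.1 and 0.531 RPM in activated sperm and 46.0, 1.38, 39.6 and 0.906 RPM in control sperm, low in the same 4 libraries as total mt-rRNA.

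Fragment by fragment, 1445 of the 52031 members reached 50 counts in 4 samples and were tested, 206 of 12S and 1239 of 16S, and these held 67.3% to 81.4% of the member reads. EdgeR called 0 of them at an adjusted p under 0.05 with a log2 fold change beyond 1, against 0.505% of all 12077 fragments tested. DESeq2 also called 0, against 1.99%. Without adjustment, 3 members passed p under 0.05 and that fold change as higher in activated sperm (2.92% of all tested fragments did), and 2 as lower (3.34%). The latter are the 16S fragments of positions 1 to 20 and 2 to 20. These shares were not compared by a test, and members overlap one another.

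The median log2 fold change was 0.15 over the tested members, 0.37 for 12S and 0.12 for 16S, beside 0.01 over all tested fragments, and 1037 members had a positive and 408 a negative sign. The sign of this lean depended on which library was left out, and its size on the method. The median was 0.02 in DESeq2 after shrinkage, beside 0.01 over all tested fragments. At a minimum of 1 count it was 0.34, beside 0.14 over all tested fragments. For 12S alone the median was 0.02 without control replicate 2 (204 fragments tested) and 0.04 without control replicate 4 (206 tested). Without control replicate 1 it was 1.05, over 43 tested 12S fragments, so these medians cover different sets. The median was 0.13 with the component side as covariate (1001 members positive, 444 negative) and 0.11 with the replicate number as block (931 and 514). Leaving out a sample left 790 to 1445 members tested, and their median was -0.16 without activated replicate 2, 0.01 without activated replicate 3 and -0.09 without control replicate 2 or control replicate 4. It was 0.39 and 0.41 without activated replicates 1 and 4, and 0.54 and 0.49 without control replicates 1 and 3. Scaling by library size alone gave 0.26 for members and 0.12 for all tested fragments.

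**Figure D5:**
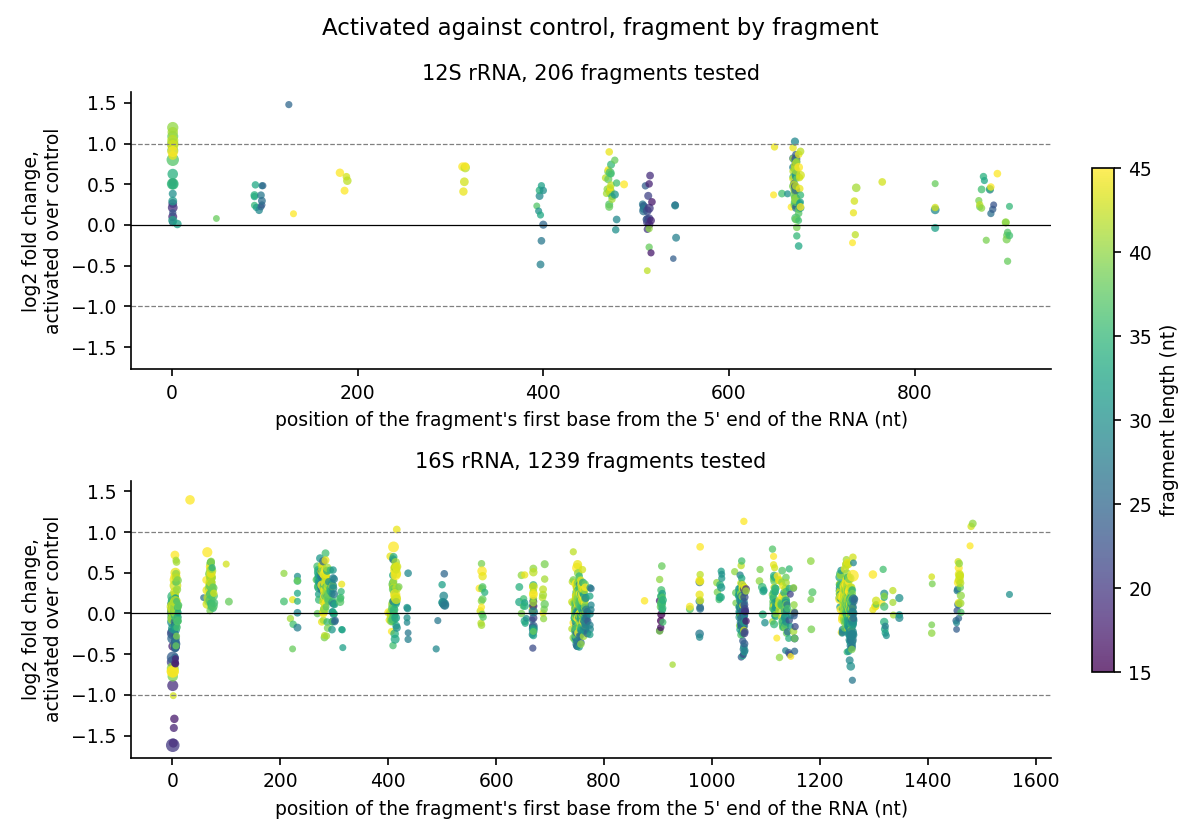
Log2 fold change of activated over control sperm (edgeR) for 206 tested 12S fragments (top) and 1239 tested 16S fragments (bottom) against the position of their first base. Point size rises with mean RPM, colour gives the length in nt, and dashed lines mark a log2 fold change of 1 in either direction. The lowest points lie at the 5' end of 16S, where short fragments reach -1.62, and the highest, at 1.48, is a 12S fragment.

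On TMM-scaled counts, 1 tested member had groups that did not overlap, with activated above control (1.77% of all tested fragments were so ordered), and in 0 members was every activated sample below every control sample (2.11% of all). This is the 16S fragment of positions 1059 to 1103, of 45 nt, which also has the lowest p among members with a positive sign. It had 71, 128, 98 and 53 reads in activated and 54, 73, 27 and 11 reads in control sperm, or 4.76, 7.32, 6.64 and 5.63 against 4.35, 3.16, 2.90 and 0.767 RPM (edgeR log2 fold change 1.13 with SE 0.41, adjusted p = 0.597). The second in that direction was the 16S fragment of positions 416 to 459, with 6.24, 10.5, 12.2 and 3.72 against 6.52, 3.11, 4.09 and 1.88 RPM (edgeR log2 fold change 1.03 with SE 0.41, adjusted p = 0.641). The third, of positions 1480 to 1522, falls outside the rule for named fragments and was picked out after its values were seen, with 4.23, 7.26, 8.47 and 5.63 against 2.42, 5.45, 1.83 and 1.67 RPM (edgeR log2 fold change 1.07 with SE 0.44, adjusted p = 0.655). In the first of these no control library reached an activated one, while in the others 1 or more did.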

How the data were processed

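Single reads of 50 bp were made from small RNA of 8 mice's mature sperm. The authors trimmed reads, kept those of 15 to 45 nt with duplicates left in and matched them with 0 mismatches to mm10 and RNA databases with SPORTS1.1. The deposited fragment tables give raw counts of each distinct sequence, and the deposited class tables give expected counts per annotation, used only as a check. Depth was 9297271 to 23123740 reads. Reads lack molecular identifiers, so the spread between mice was taken as the error.

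Members were placed on mt-Rnr1 and mt-Rnr2 of GENCODE M21 by exact match. Levels are RPM of all reads, and groups were compared over all 70 assignments by exact permutation, two-sided. Testing of fragments and species needed 50 or more counts in 4 or more samples and used edgeR 4.0.16 (TMM, quasi-likelihood, Benjamini-Hochberg) and DESeq2 1.42.0 with apeglm 1.24.0 in R 4.3.3, both fitted on the whole table after the edgeR step had been tested on simulated data. Python 3.11.15, numpy 2.4.6, pandas 2.3.3, scipy 1.17.1 and matplotlib 3.10.9 were used.

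Named fragments were the 5 of highest mean RPM of each RNA, every member called by edgeR and the 2 of lowest edgeR p in each direction. To these were added, after the data were examined, the 3 most abundant of each RNA that start beyond position 50. Members and lists were chosen with earlier results of these data known. Marker miRNAs were matched by hairpin name, since the files give no arm. Alternatives were other denominators and scalings, other count minimums, fragments that match the genome or reach 18 nt only, 100 nt windows, each fragment counted once, a replicate block, the component side as covariate and leaving out each sample. Levels without 16S reads that end at position 20 were added after the data were examined.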

Additional observations from a re-analysis of the deposited data

Results flagged for a closer look

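Among 80 groups of 4 libraries checked, 5 held a library far from its group, as judged by the ratio of its gap to the range of the group (Dixon's ratio). By chance about 1 in 20 groups is picked out in this way, and no level or share of mt-rRNA was among the 5. In control sperm, replicate 4 stood apart with 35309 RPM in the smooth muscle miRNA list and 19420 RPM in the epithelium list. In activated sperm, replicate 1 stood apart with 3476 RPM in the epithelium list and 298 RPM in the erythrocyte list. Activated replicate 2 had a mean mitochondrial tRNA read length of 39.4 nt beside 39.2 nt in each of the other activated libraries. The part of these libraries' other cells in the mt-rRNA values was not tested.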

How the results depend on the processing

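Total mt-rRNA, at 1.05 of control, was below control when divided by genome-matched reads (0.992), with TMM scaling (0.942) and on the log2 scale (0.989), and ranged from 0.812 to 1.31 when each sample was left out in turn. 16S, at 0.977, ranged from 0.776 to 1.21 in this way and was 1.11 without reads that end at position 20, itself from 0.856 to 1.38 with a sample left out. This choice, like leaving samples out of it and of the 20 nt class, was made after the data were seen. The mean length difference was -0.0215 nt with each distinct fragment counted once, and 0.957 to 2.49 nt with a sample left out. The difference in the 12S share was 0.390 to 4.11 points under other choices and 1.69 to 6.56 with a sample left out. The ratio for 12S stayed above 1, from 1.04 to 2.11 with a sample left out.

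With 1 count in 4 samples as minimum, edgeR called 2 of 24269 members in place of 0, against 1743 higher and 1057 lower of all 387985 fragments (0.722%). They were the 16S fragment of positions 1 to 20 (lower) and that of positions 1189 to 1225 (higher, 6, 11, 14 and 21 reads against 0, 0, 0 and 2). Among the controls only replicate 4 held the latter, so it would not have met the minimum without activated libraries. Nothing is read from its call. As a whole RNA, 16S had a log2 fold change of -0.08 with the replicate number as block, -0.06 with the component side as covariate and -0.24 to 0.41 with a sample left out. No label pairs mice by replicate number.

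With a sample left out, log2 fold changes of named fragments changed sign for 12S positions 1 to 35 (-0.07 to 1.11), 672 to 707 (-0.31 to 0.48) and 672 to 711 (-0.08 to 0.72), these 2 tested in only 4 of the 8 fits, and for 16S positions 1 to 43 (-0.26 to 0.69), 1 to 40 (-0.88 to 0.05), 753 to 793 (-0.13 to 0.61) and 1254 to 1288 (-0.25 to 0.52). The 12S fragment of positions 672 to 711 was at -0.12 with the block. The 16S fragment of positions 1254 to 1288, at -0.01, was at 0.01 with DESeq2, 0.07 with median-ratio scaling, 0.06 with library size only, 0.04 with the minimum of 1 count, 0.03 with genome-matched fragments only, 0.05 with the block and 0.01 with the covariate. The causes were not tested. The remaining values, 135 for whole results and 274 for named fragments and added checks, are no measure of stability, since they include counts of 0, the void genome-matched share and exact sign-flip tests over 4 blocks, whose smallest p is 0.125.

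With 4 mice against 4, the 4.65-fold spread between libraries limits the precision of the group means. The reads lack molecular identifiers and stop at 45 nt, so longer mt-rRNA fragments are not seen.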

Other observations

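Reads that reach or run past the annotated 3' ends were counted apart, whatever their annotation name. Over the 8 libraries, 3057 reads ended at the annotated 3' end of 16S, 12910 in the genomic A that follows it, and 9118 carried more A there than the genome holds. The latter were 36.3% of these reads, from 31.4% in control replicate 2 to 40.0% in activated replicate 3, and the longest run of A past the annotated end, genomic A included, had 17 A. For 12S, 15 reads ended at the annotated end and 391 carried added A, with up to 7 A. Reads that run across a border between genes numbered 51 from mt-Tv into 16S and 518 from 16S into mt-Tl1. In antisense direction, 1 read matched 12S and 14 matched 16S. These ends were chosen for counting with no group test.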
